A study of Carthamus tinctorius with 15 samples.

Results

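Stem was set against flower of safflower (Carthamus tinctorius), a thistle-like oil crop whose florets also yield a dye. RNA-seq values of 3 stem libraries and 3 flower libraries were compared, 6 of the 15 samples of the series. A gene was included when at least 3 of these 6 libraries had 1 FPKM or more. FPKM counts the reads of a gene, divided by its length in kilobases and by the depth of the library. The rule kept 19371 of 33242 genes. The labels give the tissue and a replicate number and name no treatment or genotype. Whether different plants gave the replicates is not stated there. The p-values therefore judge differences against the spread between these libraries, and that spread may be purely technical. In whole organs, fewer cells of a type and less RNA per cell cannot be told apart.

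A stem is built for support and transport, with vascular strands, fibres with thickened walls and, in its green outer layers, cells that carry out photosynthesis. A flower holds sterile and reproductive organs, and in the daisy family it is a head of many small florets with petals, anthers, pollen and ovaries. Pollen, anther walls and pigmented petals are each known in plants for transcripts that leafy organs hardly make. The genes are known here only by a row number that starts at 1 below the header ("row 5270"), and by a length recovered from their values. Names and functions of single genes were therefore not used here, and marker genes of stem and flower were not checked.

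Depth, worked out from the steps of the values, came to 28391416, 28942014 and 30563169 reads in stem, against 30431421, 29363997 and 30488919 in flower, so the tissues were sequenced alike. Of the genes included, 14165 had 1 FPKM or more in all 6 libraries. Another 2754 passed through the 3 stem libraries alone, 1010 through the 3 flower libraries alone, and 1442 through other mixtures. The 3764 genes that passed through a single tissue were in effect chosen for a difference. The 14165 genes at 1 FPKM or more in all 6 libraries were not chosen in that way. By the rule given with the full counts, 4599 of them were called higher in stem and 2203 in flower. Over all 19371 genes tested the counts were 7972 (41.2%) in stem and 3370 (17.4%) in flower. One library stood apart. Flower replicate 1 correlated with flower replicates 2 and 3 at 0.982 (Spearman's rho across genes, which are not independent replicates), while replicates 2 and 3 correlated at 0.992 and the stem pairs at 0.992 to 0.993. Results that rest on flower replicate 1 are given with and without it.

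Many genes differed between stem and flower. By limma on log2(FPKM + 1), 11342 genes, 58.6% of those tested, differed at an adjusted p under 0.05 and by at least 1 on that scale. Of these 7972 (41.2%) were higher in stem and 3370 (17.4%) in flower. These shares include the genes that passed the filter through 1 tissue, of which 2600 were called higher in stem and 951 in flower. At the adjusted p alone, with no minimum size, 86.7% of genes passed. Among the 19371 genes tested, the libraries of the tissues did not overlap for 11459 with stem above flower and 5611 with flower above stem. The filter itself fixes this for the 2754 genes that passed through stem alone and the 1010 through flower alone. Only 16 of the called genes had overlapping libraries. For 5895 genes, the 95% interval of the difference lay within 1 of 0 on both sides.

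The excess of genes higher in stem depends on how the tissues are scaled. The median gene was 0.63 higher in stem than in flower on the log2(FPKM + 1) scale. The middle of the genes ran from -0.46 at the lower quartile to 1.77 at the upper one. FPKM is relative to the library, so it holds no information on the amount of RNA per organ. After division by median-ratio factors, which were 1.26 in each stem library and 0.793 to 0.836 in the flower libraries, the median difference was 0.07. The calls then came to 10811 (55.8%), of which 5883 (30.4%) were higher in stem and 4928 (25.4%) in flower. The share of calls higher in stem was 54.4% with that scaling and 70.3% without it. All 5883 had been called higher in stem without the scaling too, and no call changed its direction. A further 1558 genes were called higher in flower. The factors lower every stem value and raise every flower value, so a shift toward flower was given. It is too small to carry a call across to the opposite threshold, so the lack of reversals was fixed in advance.

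**Figure D1:**
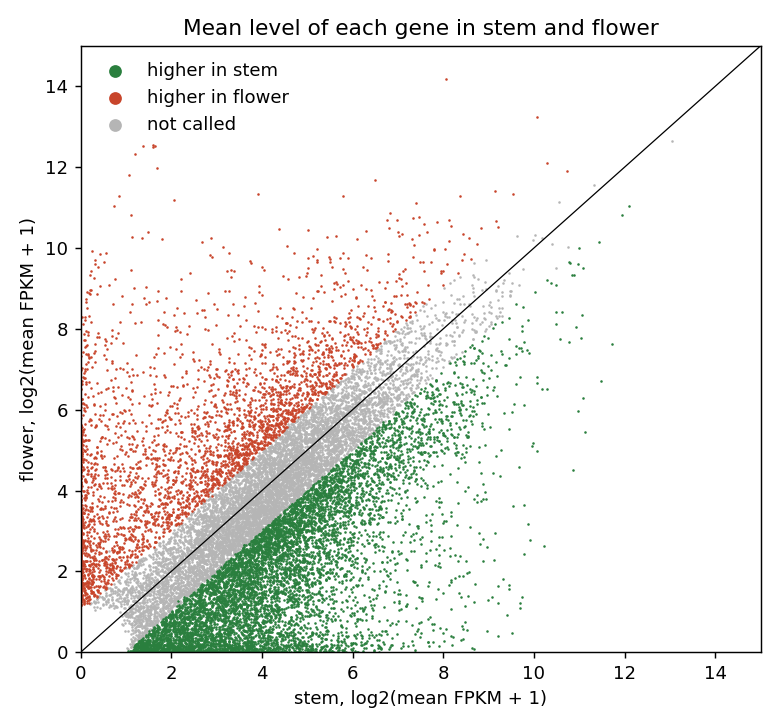
Mean level of each of 19371 genes in stem (horizontal axis) and flower (vertical axis), both as log2(mean FPKM + 1), 1 point per gene, with the line of equal level. Colours give the 7972 genes called higher in stem, the 3370 called higher in flower and the rest, and the genes along the left edge, near 0 in stem, reach higher levels than those along the bottom edge.

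Small differences were mostly in favour of stem, and the very largest in favour of flower. At 2 or more on the log2(FPKM + 1) scale, 4083 genes were higher in stem and 1732 in flower. At 4 or more the counts were 797 in stem and 536 in flower, at 6 or more 148 in stem and 164 in flower, and at 8 or more 15 in stem and 43 in flower. The 9 genes at 10 or more were all higher in flower. After median-ratio scaling flower already led at 3 or more, with 1251 genes higher in stem and 1290 in flower. These counts describe the calls and carry no test of their own.

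Over all genes tested, the direction of the calls also went with the level of the gene. When genes were put into 10 equal classes by level, the lowest class, at means of 0.551 to 2.01 FPKM over the 6 libraries, had 48.25% of its genes called higher in stem and 16.05% in flower. In the class from 42.9 to 82.7 FPKM the shares were 30.1% in stem and 23.95% in flower. In the highest class, from 82.9 FPKM up, they were 34.5% in stem and 32.0% in flower. The classes include the 2754 genes that passed the filter through stem alone and the 1010 through flower alone. The filter set the direction of those genes, and the classes were not counted without them. With median-ratio scaling flower led in the 4 highest classes, and in the highest one 26.4% of genes were called higher in stem and 41.5% in flower. The pseudocount of 1 makes differences of low genes smaller. At the levels of the 3 lowest classes a difference of 4 cannot be reached, so no gene there was called with it.

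**Figure D2:**
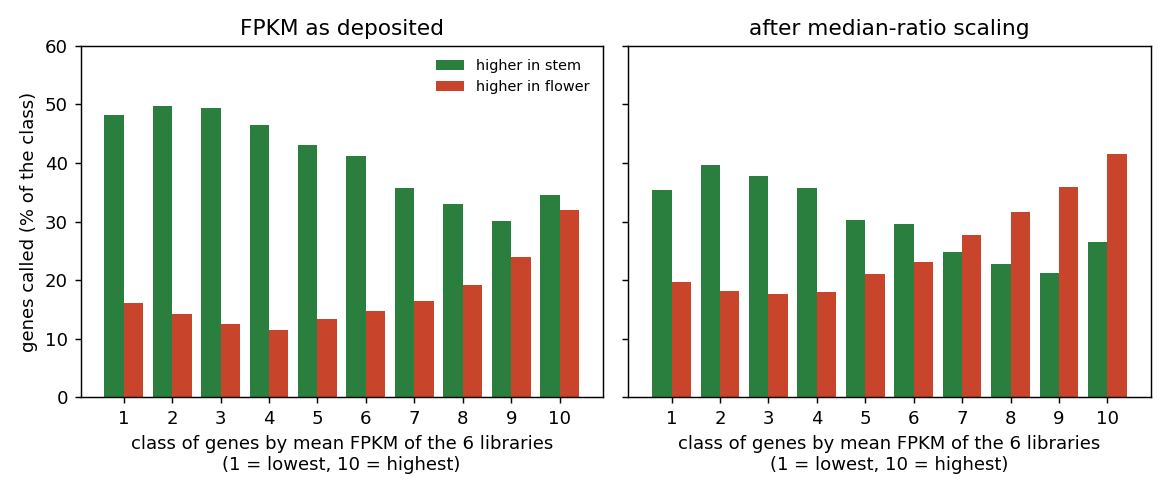
Share of genes called higher in stem and in flower, in percent of each of 10 equal classes of genes, ordered by mean FPKM over the 6 libraries, for FPKM as deposited (left) and after median-ratio scaling (right). The stem share falls from 48.25% in the lowest class to 34.5% in the highest with FPKM as deposited, and flower leads in the 4 highest classes after scaling.

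The genes higher in one tissue made up most of its transcripts and few of the other's. The 7972 genes higher in stem held 56.05% ± 0.108 of all FPKM in stem and 10.6% ± 0.354 in flower (SD, n = 3 each). The 3370 genes higher in flower held 7.82% ± 0.0214 in stem and 55.2% ± 0.714 in flower. The choice of genes fixes these directions. Median levels in root and leaf, whose libraries took no part in the choice, were nearer the stem median than the flower median for both groups. Such medians do not show that the levels of single genes are close. The median level of the genes higher in stem was 17.0 FPKM in stem, 2.12 in flower, 15.25 in root and 13.9 in leaf. For genes higher in flower it was 4.40 in stem, 33.8 in flower, 5.31 in root and 5.32 in leaf. Genes not called had medians of 14.8 in stem, 13.45 in flower, 15.1 in root and 13.5 in leaf. The root and leaf medians of the genes higher in stem were thus near those of genes not called. Of the genes higher in stem, 27.15% had their highest mean of the 4 tissues in stem, 46.8% in root and 26.0% in leaf. Of those higher in flower, 90.45% had it in flower. Among genes not called the shares were 13.4% in stem, 23.1% in flower, 39.8% in root and 23.7% in leaf.

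More genes were detected in stem than in flower. At 1 FPKM or more, 18499, 18509 and 18481 genes were detected in the stem libraries, against 16470, 16142 and 16191 in the flower libraries. Every stem library was above every flower library, with an excess of 2229 genes (two-sided exact permutation p = 0.1, the smallest that 3 against 3 libraries allow, so the design cannot pass 0.05). The excess was 1361 genes with median-ratio scaling and 1118 genes at 0.1 FPKM, with no overlap of libraries in either case. The 100 highest genes held 16.8% ± 0.12 of FPKM in stem and 25.6% ± 1.585 in flower (SD, n = 3 each, exact permutation p = 0.1, again the smallest possible). Flower replicate 1 was the least concentrated flower library at 23.8%, against 26.5% in each of the others.

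The strongest stem genes were almost silent in flower. Row 1672 (801 bases) had 733.6, 716.0 and 734.7 FPKM in stem, against 0.7795, 0 and 0.3685 in flower. Row 5433 (244 bases) had 818.9, 831.4 and 849.6 FPKM in stem, against 3.37, 0 and 0 in flower. The stem libraries of both genes lay close together, and flower replicate 1 was the highest flower library. All differences of single genes are given as stem minus flower on the log2(FPKM + 1) scale. Row 1672 differed by 9.08, with an SE of 0.191 (limma adjusted p = 2.15e-08). For row 5433 it was 8.995 (SE 0.544, limma adjusted p = 2.95e-06). Both genes were picked for the size of their difference, and row 1672 passed the filter through stem alone. Their p-values are therefore only a description. Without flower replicate 1 the differences were 9.28 and 9.70, with the flower means at 0.184 and 0 FPKM. Row 3151 (1233 bases) had 835.7, 820.5 and 837.3 FPKM in stem, against 3.86, 0 and 0.133 in flower. Row 17449 (696 bases) had 865.2, 843.7 and 860.4 FPKM in stem, against 3.635, 0.587 and 0.518 in flower. Row 4847 (973 bases) had 492.7, 507.8 and 506.3 FPKM in stem, against 1.25, 0 and 0.0337 in flower. In these 3 genes too the flower reads came mostly from replicate 1, and the stem libraries did not come near the flower ones. Without that library their flower means were 0.0665, 0.553 and 0.0169 FPKM, in the order given.

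Most of these genes were leaf genes as much as stem genes. Row 5433 averaged 2678 FPKM in leaf and 4.74 in root, row 3151 2558 in leaf and 1.995 in root, and row 17449 3003 in leaf and 3.89 in root. Their leaf levels were above their stem levels. Row 4847 stood at 786 FPKM in leaf and 1.24 in root. Row 1672 was higher in stem than in leaf, at 406 FPKM in leaf and 1.71 in root. These 5 genes were thus high in both green organs and low in root and flower.

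The other leading stem genes had other patterns. Row 8070 (1545 bases) had 596.6, 595.5 and 590.3 FPKM in stem, against 0.787, 0.11 and 0.0425 in flower, and it was read well in root (154 FPKM) and leaf (254). Row 607 (1974 bases) had 391.0, 396.9 and 398.3 FPKM in stem, against 0.233, 0 and 0 in flower, with 346 in root and 3.48 in leaf. Row 27979 (1778 bases) had 407.9, 404.3 and 413.2 FPKM in stem, against 0.185, 0 and 0 in flower, with 0.366 in root and 16.3 in leaf. So row 8070 was low in flower alone, row 607 was a gene of stem and root, and row 27979 was mainly a stem gene. The flower reads of rows 607 and 27979, 14 and 10 in all, came from replicate 1 alone. The difference was 8.60 for row 27979, with an SE of 0.0865 (limma adjusted p = 4.15e-09). Row 607 differed by 8.53, with an SE of 0.0976 (limma adjusted p = 4.40e-09). Rows 607 and 27979 passed the filter through stem alone and were picked for their difference, so these p-values only describe them.

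The strongest flower genes were more extreme. Row 5270 (288 bases) had 2.45, 1.44 and 0.909 FPKM in stem, against 4042, 6286 and 7294 in flower. Row 25608 (327 bases) had 2.05, 0.634 and 1.20 FPKM in stem, against 3781, 5826 and 5744 in flower. Both had a stem minus flower difference of -11.14 on the log2(FPKM + 1) scale, with SEs of 0.275 and 0.256 (limma adjusted p = 4.00e-08 and 3.07e-08). They were picked for that difference, so these p-values too are only a description. Row 5269 (453 bases) had 3.11, 1.68 and 1.30 FPKM in stem, against 4573, 6892 and 6611 in flower. Row 5267 (312 bases) had 2.82, 2.215 and 1.05 FPKM in stem, against 4530, 6454 and 6423 in flower. Row 5268 (444 bases) had 1.745, 0.70 and 0.884 FPKM in stem, against 2567, 4099 and 4160 in flower. In all 5 genes flower replicate 1 was the lowest flower library, and the gap to stem was far larger than that spread.

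Row 28466 (903 bases) had 3.43, 1.19 and 1.74 FPKM in stem, against 4807, 6491 and 6477 in flower. Row 12559 (141 bases) had 0.999, 0.49 and 0.928 FPKM in stem, against 2088, 2650 and 2756 in flower. Row 29570 (246 bases) had 4.01, 0.843 and 1.73 FPKM in stem, against 4107, 4032 and 3900 in flower. Row 29570 was the even one among the flower libraries, and its stem mean of 2.19 FPKM was 1.29 without stem replicate 1. The 8 leading flower genes averaged at most 2.16 FPKM in root and, apart from row 12559 at 17.6 FPKM, at most 2.42 in leaf. Their lengths of 141 to 903 bases were short beside the median of 1373 bases over the genes tested. The 50 strongest flower genes had a median length of 740 bases, with 17 under 600, and the 50 strongest stem genes one of 1218 bases, with 5 under 600. Among all genes tested 18.95% were under 600 bases. These lengths were recovered from the values and had no test.

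**Figure D3:**
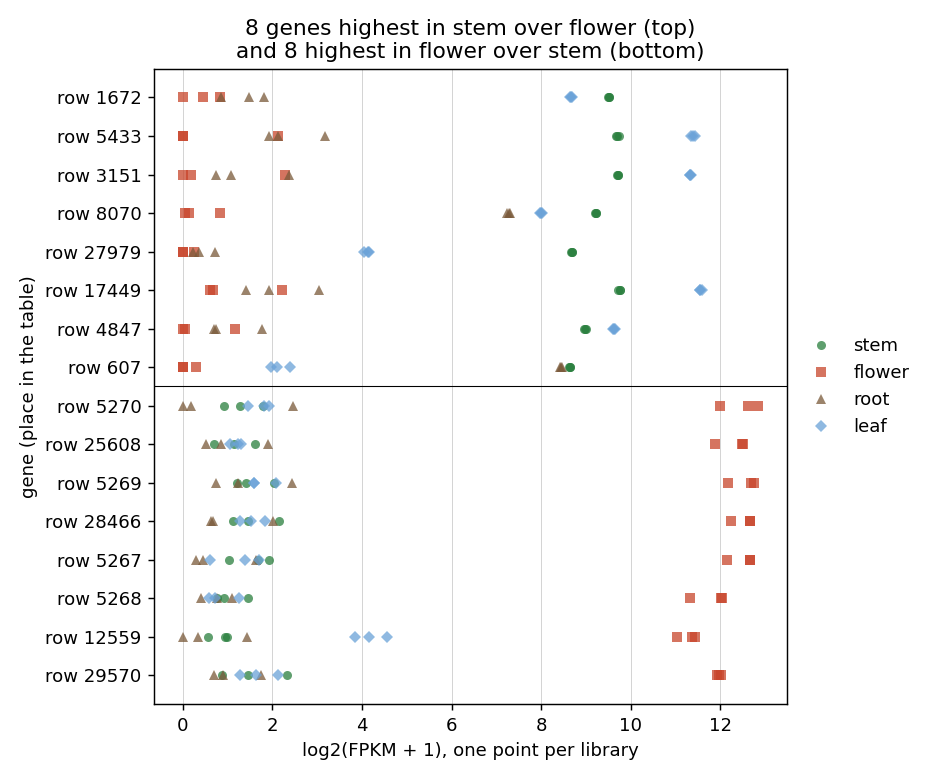
Level of the 8 genes with the largest stem excess (above the line) and the 8 with the largest flower excess (below it), as log2(FPKM + 1), 1 point per library in stem, flower, root and leaf. The leading stem genes reach 391.0 FPKM or more in each stem library and at most 3.86 in any flower library, 4 of them are higher still in leaf, and the leading flower genes have at most 4.01 FPKM in a stem library and at least 2088 in a flower library.

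Beyond these leaders, the strong genes of flower were rarer elsewhere than the strong genes of stem. Of the 797 genes higher in stem by at least 4, none had a mean under 1 FPKM in both root and leaf. Of these, 280 had their highest mean in stem, 313 in root and 204 in leaf. Of the 536 genes higher in flower by at least 4, 208 (38.8%) had means under 1 FPKM in both root and leaf. The highest mean of 532 of them was in flower. Among the 15 genes higher in stem by at least 8, 7 were highest in stem, 6 in leaf and 2 in root. All 43 genes higher in flower by at least 8 were highest in flower. The choice of genes favours its own tissue in both groups, and these counts had no test.

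Of the 536 genes higher in flower by at least 4, 458 had no such gene in the row before or after, and the others stood in runs. Of the 797 genes higher in stem by at least 4, 718 had no such neighbour. The labels do not say what orders the table. The longest run of neighbouring genes higher in flower by at least 4 took in 6 genes, rows 5266 to 5271, among them 4 of the 8 leaders. Around it, within rows 5259 to 5276, 11 of 18 genes were tested and 10 were called higher in flower, all by at least 4. The exception was row 5272, at 6.82 FPKM in stem and 4.52 in flower (limma adjusted p = 0.148). The 7 others had at most 0.367 FPKM in flower. The stretch held 0.0018% of FPKM in stem and 2.86% in flower, with sums of 18.6, 13.9 and 9.66 FPKM in the stem libraries, against 16650, 25252 and 26115 in the flower libraries. Row 5313 (560 bases), a little further down, was at 0.67 FPKM in stem and 2098 ± 354 in flower (SD, n = 3). It differed by -10.32 on the log2(FPKM + 1) scale (limma adjusted p = 2.01e-08). The stretch and row 5313 were picked after their values were seen.

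**Figure D4:**
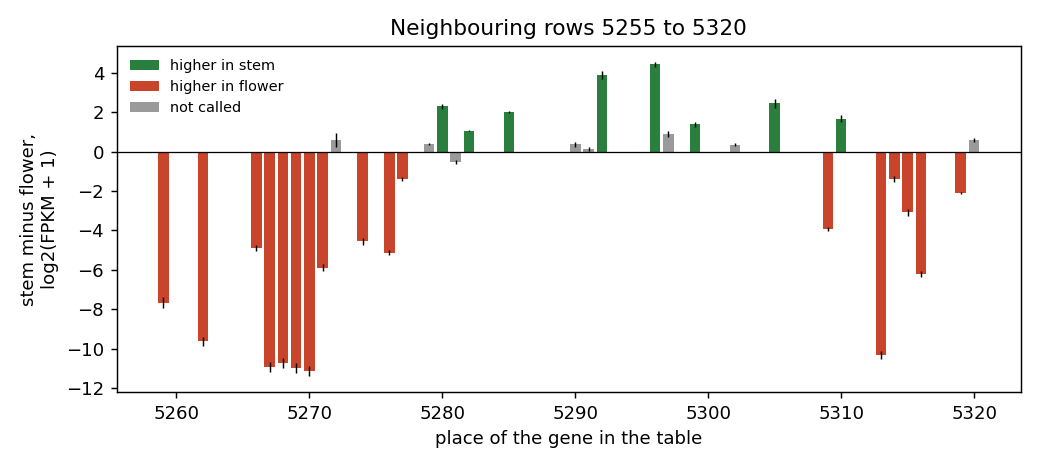
Stem minus flower difference on the log2(FPKM + 1) scale (vertical axis, bars with SE from limma) for the genes tested among rows 5255 to 5320 of the table (horizontal axis), coloured by call. The 10 called genes up to row 5276 all lie below 0, down to -11.14 at row 5270, and genes of both directions follow.

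In some runs, though not in all, the genes shared a pattern among the flower libraries. In the run of rows 5266 to 5271, flower replicate 1 was the lowest flower library for all 6 genes, as for row 5271 with 48.75, 73.9 and 64.6 FPKM there. In rows 12645 to 12647 it was the highest of the flower libraries by a wide margin. Row 12645 (447 bases) had 8.12, 9.20 and 8.86 FPKM in stem, against 1715, 549.9 and 561.8 in flower. Row 12647 (747 bases) had 0.33, 0.324 and 0.175 FPKM in stem, against 825.7, 275.7 and 287.9 in flower. Without flower replicate 1 both stayed far above stem, as the library values show. Rows 8259 to 8261 were likewise highest in flower replicate 1, and row 8260 (593 bases) had 0.772, 0.583 and 0.497 FPKM in stem, against 367.7, 178.9 and 198.5 in flower. Rows 5190 to 5193 shared no such pattern, since flower replicate 1 was the highest flower library for row 5190 and the lowest for row 5191. Row 5191 (2067 bases), the strongest of them, had 0.341, 0.117 and 0.253 FPKM in stem, against 723.9, 842.4 and 784.2 in flower. In rows 16787 to 16789 flower replicate 1 was the lowest flower library for all 3 genes, but by unlike margins. Row 16787 had 19.1, 46.6 and 43.0 FPKM in flower, and row 16788 had 33.56, 57.43 and 59.98, with replicate 1 well below the others. The flower libraries of row 16789 lay close together, at 2270, 2398 and 2305 FPKM. Flower replicate 1 was also the lowest flower library for each gene of rows 8757 to 8759. Neighbours of like length can be near-identical copies that share reads, and the labels do not say how such reads were counted, so the split of levels within a run is uncertain.

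Stem had 1 run of 5 such genes, rows 14514 to 14518. Row 14518 (945 bases) had 631.7, 640.7 and 629.0 FPKM in stem, against 4.24, 1.44 and 1.84 in flower. Row 14517 (816 bases) had 238.6, 215.9 and 223.8 FPKM in stem, against 3.10, 3.38 and 3.86 in flower. The stem libraries lay far above the flower libraries in both genes. All 5 genes were higher still in leaf, from 147 FPKM for row 14516 to 2261 for row 14518, and at most 1.65 in root. Across the whole table, neighbouring called genes shared their direction in 65.6% of 4648 pairs. Unrelated pairs would share it in 58.2%, since most calls were higher in stem. At 2 rows apart the share was 62.2%, at 10 rows 59.5%, and at 500 rows 58.3%. Of the 536 genes higher in flower by at least 4, 44 pairs stood in neighbouring rows, 11 stood 10 rows apart and 7 stood 500 rows apart. For the 797 such genes of stem the pairs numbered 42, 23 and 23 at these distances, though 41 at 3 rows. The shares are given as a description, without a test.

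Some of the most abundant genes were shared by the tissues. Row 26099 (158 bases) had the highest mean in stem, with 7784, 10130 and 7657 FPKM there, against 6275, 6686 and 6254 in flower. It was not called, since its difference of 0.40 (SE 0.114, limma adjusted p = 0.0127) was under 1, and it was -0.24 with median-ratio scaling. Row 5282 (183 bases) had 4311, 4450 and 4430 FPKM in stem, against 2075, 2129 and 2096 in flower, a difference of 1.07, or 0.43 with median-ratio scaling and then no longer called. Row 17054 (150 bases) had 3912, 4009 and 3907 FPKM in stem, against 1289, 2084 and 2047 in flower. Row 17054 differed by 1.16, by 0.93 without flower replicate 1, by 0.99 with array weights and by 0.52 with median-ratio scaling, and these are under the threshold. Row 2393 (708 bases) was more of a stem gene, with 3354, 3385 and 3333 FPKM in stem, against 192.6, 197.9 and 196.9 in flower. In root it was at 3230 FPKM and in leaf at 622.

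In flower the most abundant gene was row 2361 (828 bases), with 266.2, 260.7 and 273.5 FPKM in stem, against 17115, 19153 and 19179 in flower. It made up 0.0341% of FPKM in stem and 2.34% in flower. Row 25609 (836 bases), next in the table to the leader row 25608, had 1043, 1070 and 1085 FPKM in stem, against 7978, 10543 and 10301 in flower. Unlike row 25608, it was abundant in stem and in leaf, at 966 FPKM, and low in root, at 3.50. The difference was -6.11 for row 2361, with an SE of 0.0632 (limma adjusted p = 4.15e-09). Row 25609 differed by -3.16, with an SE of 0.11 (limma adjusted p = 1.76e-07).

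Genes of equal FPKM in the tissues were found at high levels too. Among genes with a mean of at least 100 FPKM, row 9999 (1700 bases) had 139.4, 128.2 and 138.5 FPKM in stem, against 145.0, 131.2 and 129.6 in flower. Row 20824 (303 bases) had 198.8, 186.0 and 184.3 FPKM in stem, against 170.4, 202.3 and 196.5 in flower. Row 23131 (912 bases) had 161.0, 157.3 and 164.5 FPKM in stem, against 176.7, 150.5 and 155.1 in flower. Their libraries overlapped between the tissues. The 95% interval of the difference ran from -0.15 to 0.16 for row 9999, from -0.18 to 0.18 for row 20824 and from -0.16 to 0.17 for row 23131. Row 32004 (2032 bases) had 296.3, 294.0 and 285.8 FPKM in stem, against 370.0, 262.5 and 262.9 in flower, and its interval was wider, from -0.33 to 0.30. These genes were chosen for the size of their difference, which is therefore a description. The median gene lay 0.63 above 0, and with median-ratio scaling the 4 genes were between -0.65 and -0.63, toward flower but under the threshold of 1. Evenness between the tissues thus depends on the scaling. In the other organs the 4 genes were not alike. Row 9999 averaged 217 FPKM in root and 47.8 in leaf, row 20824 149 in root and 38.8 in leaf, and row 32004 259 in root and 223 in leaf. Row 23131 was near its stem and flower levels there too, at 151 FPKM in root and 165 in leaf.

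Genes with reads in a single tissue of the pair were mostly low. With at least 10 reads in each library of one tissue and 0 in each library of the other, 397 genes were read in stem alone and 287 in flower alone. Of these, 264 and 180 were among the genes tested. Their median levels were 2.31 FPKM in stem and 2.53 in flower. Row 2964 (69 bases) had 171.5, 161.7 and 159.3 FPKM in stem and no read in flower. Set against a floor of 3 reads over the 3 flower libraries, which covers counting error only, it was at least 341-fold higher in stem. Row 24251 (773 bases), at 94.6 FPKM in stem, was at least 2201-fold higher, and row 20192 (468 bases), at 68.0 FPKM, at least 959-fold higher. All 3 were also read in root and leaf, at a mean of 13.0 FPKM or more.

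Of the 287 genes read in flower alone, 176 had no read in root, 172 had none in leaf and 123 had none in either. Of the 397 genes read in stem alone, 22 had no read in root, 7 had none in leaf and 1 had none in either. Row 26943 (189 bases) had no read in stem, against 90.4, 149.7 and 136.1 FPKM in flower, and was at least 693-fold lower in stem by the floor of 3 reads over the 3 stem libraries. It had no read in root or leaf either. Row 26953 (560 bases) had 71.8, 113.0 and 112.7 FPKM in flower and was at least 1625-fold lower in stem, and row 14369 (1284 bases), with 83.6, 94.1 and 94.7 FPKM in flower, at least 3415-fold lower. Row 26953 had 6 reads in leaf and none in root, and row 14369 had 2 reads in root and 7 in leaf. The stem count depended on flower replicate 1. Without that library 690 genes were read in stem alone, and 293 of them had reads in flower replicate 1, with a median of 2 reads. Leaving out flower replicate 2 or 3 in its place gave 479 and 493 genes.

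Genes on both sides of the threshold had nearly equal differences on the log2(FPKM + 1) scale, but not equal ratios of FPKM. Just inside, row 16613 (3153 bases) averaged 33.9 ± 1.11 FPKM in stem and 16.45 ± 0.912 in flower (SD, n = 3 each), and row 2885 11.6 ± 0.79 in stem and 5.29 ± 0.473 in flower. On the flower side, row 19823 averaged 16.9 ± 0.544 FPKM in stem and 34.9 ± 2.97 in flower, and row 11051 31.8 ± 1.96 in stem and 64.6 ± 3.89 in flower. Just outside were row 3322, at 14.65 ± 1.145 FPKM in stem and 6.84 ± 0.885 in flower, and row 24126, at 2.17 ± 0.3235 in stem and 0.6235 ± 0.433 in flower. On the flower side they were row 25723, at 82.5 ± 2.99 FPKM in stem and 166 ± 16.3 in flower, and row 4419, at 0.319 ± 0.169 in stem and 1.63 ± 0.195 in flower. With a pseudocount of 0.1 the low rows 24126 and 4419 differed by 1.915 and -2.113, well past the threshold. Rows 3322 and 25723 then differed by 1.091 and -1.008. Calls so close to the threshold also turn on single libraries, as row 2885 shows with 0.99 without flower replicate 1.

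Flower varied more between its libraries than stem, and replicate 1 stood farthest from the others. The median SD of a gene on the log2(FPKM + 1) scale was 0.0854 in stem and 0.145 in flower, and 68.6% of genes had the larger SD in flower. A difference of at least 1 from the mean of the other libraries of its tissue was found in flower replicate 1 for 396 genes upward and 83 downward. In the other 5 libraries such genes numbered 28 to 51 upward and 31 to 93 downward. The variance between replicates, as a multiple of counting noise by the median over genes, was 3.78 to 3.88 in the stem pairs, 3.86 between flower replicates 2 and 3, and 12.7 in both pairs with flower replicate 1. Array weights, which fall as a library varies more, were 1.42 to 1.55 in stem, and 0.21, 1.19 and 1.24 in flower replicates 1, 2 and 3.

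**Figure D5:**
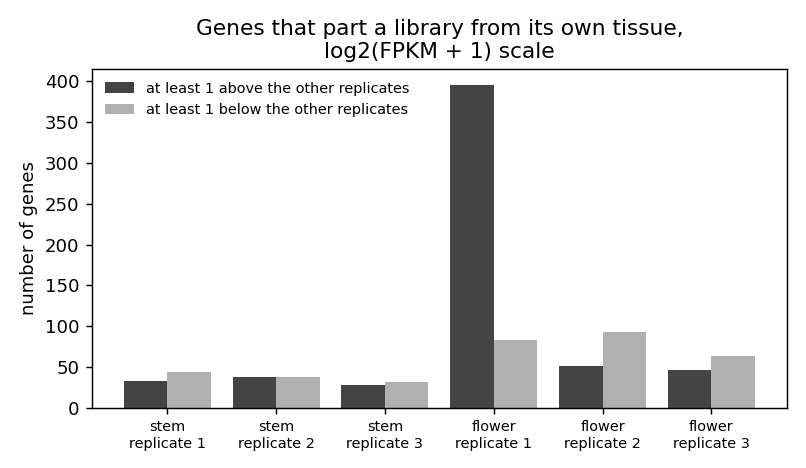
Number of genes whose log2(FPKM + 1) value in a library lies at least 1 above (dark) or at least 1 below (light) the mean of the other libraries of that tissue, for the 3 stem and 3 flower libraries. Flower replicate 1 has 396 genes above and 83 below, against at most 51 and 93 in any other library.

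Single genes show how far this library could stand apart. Row 85 (1282 bases) had 29.45, 30.9 and 30.5 FPKM in stem, against 0.0256, 99.96 and 108.0 in flower, and was not called (difference 0.48, limma adjusted p = 0.799). Without flower replicate 1 it was -1.75, the opposite direction. Row 16564 (192 bases) had 147.3, 151.0 and 170.2 FPKM in stem, against 1.03, 54.8 and 48.0 in flower, and its difference of 3.15 (limma adjusted p = 0.0403) was 1.585 without that library. Its call was lost without any one of stem replicates 1, 2 and 3, at differences of 3.09 to 3.19. It was also lost with median-ratio scaling (2.56), with a pseudocount of 0.1 (3.44) and with no filter on low values (3.15). Row 20605 (842 bases) had 961.2, 961.7 and 958.9 FPKM in stem, against 17.05, 0.364 and 0.312 in flower, and averaged 14493 FPKM in leaf. Row 10086 (716 bases) had 10.6, 9.94 and 2.285 FPKM in stem, against 7.62, 0.571 and 0.275 in flower, and was not called (difference 1.53, limma adjusted p = 0.114). It was called at 2.40 without flower replicate 1, at 2.16 with array weights and at 1.53 with the replicate block. The gene varied in every tissue, with replicate 1 highest also in root (8.64, 0.960 and 1.63 FPKM) and leaf (10.5, 3.81 and 0.489). Flower replicate 1 was thus lowest in rows 85 and 16564 and highest in rows 20605 and 10086.

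Reads of the very strongest stem genes were spread unevenly over the flower libraries, and those of the larger set nearly evenly. The 15 genes higher in stem by at least 8 summed to 256660, 260115 and 277498 reads in stem, against 1004, 79 and 92 reads in flower. Over the 3 flower libraries, row 20605 alone held 454 of these reads and row 3151 held 150. The median of the 15 genes was 29, 0 and 5 reads in flower replicates 1, 2 and 3. For the 797 genes at 4 or more the sums were 3866115, 3923613 and 4154389 reads in stem, against 77398, 69280 and 72594 in flower. The flower sums were 0.254%, 0.236% and 0.238% of the reads of replicates 1, 2 and 3. Of these 797 genes, 56 had no read in flower replicate 1, against 149 and 148 in replicates 2 and 3. In the other direction, the 43 genes higher in flower by at least 8 had 867, 553 and 734 reads in stem, against 1264923, 1391393 and 1451467 in flower. The part of other tissue in flower replicate 1 was not tested. Without that library 11424 genes were called, 8076 higher in stem and 3348 in flower, and 97.9% of the calls made with all 6 libraries were among them with the same direction.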

How the data were processed

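Expression was measured by RNA-seq in safflower. The authors deposited FPKM values, as the name of the table says. The tools HISAT2, HTSeq, fastp and R 3.2.0 appear in the submitters' processing notes with no role. The build, the annotation and the handling of strand were not stated in the labels. Per the labels' protocols, RNA was extracted with TRIzol and libraries were made with a VAHTS Universal V6 kit. The 12 columns of the table match the titles of 12 libraries. Seed libraries were not analysed here, and the labels give no batch.

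Library totals, gene lengths and whole reads were recovered from the FPKM steps, since each gene's values step by a fixed amount per read. Whole reads came out for 100% of the 26625 rows above 0, within 0.01 reads. A short recovered length can be a divisor of the true one. Floors cover counting error only, and the 95% intervals of differences come from the spread between libraries.

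The 6 libraries were fitted on log2(FPKM + 1) in limma 3.58.1 (R 4.3.3), using a mean-variance trend (4 residual degrees of freedom), adjusted by Benjamini-Hochberg over 19371 genes. Only these libraries entered the fit, because flower replicate 1 stands apart and pooling with root and leaf would lower the estimated spread. Differences on this scale understate the change of low genes. Scripts were tested on simulated data. The main fit did not pair libraries by replicate number.

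Genes were named by a rule: the 8 largest differences per direction without overlap of libraries, the 4 most abundant per tissue, the 4 smallest differences at 100 FPKM or more, the 3 highest genes read in 1 tissue alone, the 2 most extreme each way in flower replicate 1, and the 2 nearest the threshold on each side. Other genes were chosen after their values were seen. The comparison and the rules were chosen with earlier results of these data known. Alternatives changed the pseudocount, filter, scaling, libraries, weights, count basis, block and threshold.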

Additional observations from a re-analysis of the deposited data

How the results depend on the processing

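The number of genes called, 11342, ran from 9141 with a filter of 5 FPKM to 12170 with voom on recovered reads. No call changed direction under any alternative fit, which for median-ratio scaling the size of the factors fixed in advance. Requiring a difference of at least 2 gave 5815 genes, 4083 higher in stem and 1732 in flower. With median-ratio scaling 54.4% of calls were higher in stem. Leaving out 1 library at a time gave 11319 to 11424 genes, 7934 to 8076 higher in stem and 3348 to 3385 in flower, and 70.1% to 70.7% of calls higher in stem. The excess of genes detected in stem, 2229 at 1 FPKM, was 1118 at 0.1 FPKM, 2848 at 5 FPKM and 1361 with median-ratio scaling. It was 2166 to 2330 with 1 library left out. The stem minus flower difference in what the 100 highest genes held was -8.79 percentage points of FPKM, -10.95 for the 500 highest genes, -5.695 as a share of reads, and -9.70 to -8.32 with 1 library left out. With at least 3 reads 446 genes were read in flower alone. With at least 30 reads the counts were 248 in stem and 182 in flower. At 10 reads, with 1 library left out, they were 424 to 690 in stem and 306 to 352 in flower. Row 26099 was -0.24 with median-ratio scaling. Row 85 was -0.0624 with that scaling, -1.215 with array weights and, with 1 library left out, between -1.75 (without flower replicate 1) and 1.62. The causes were not tested. With the replicate block 11347 genes were called. Same-numbered stem and flower libraries deviated from their tissue means with correlations of -0.003 to 0.008. Of the stem libraries, 0 of 3 correlated best with the flower library of its own number. So few libraries cannot decide whether those of like number came from the same plant. Genes with few reads are the least certain, and differences of genes read in 1 tissue alone have only a floor.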
